A study of Mus musculus with 9 samples.

Results

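The genes described here set the shape of mitochondria: 10 genes of membrane fusion, membrane division (fission) and cristae structure, chosen by name for their roles in this machinery, with earlier results of these data known. They are Mfn1, Mfn2, Opa1, Oma1, Dnm1l, Fis1, Mff, Mief1, Mief2 and Immt. All 10 had a row of their own among the 37310 gene rows of the files, and all 10 passed the filter on low counts that left 16224 genes to test. RNA sequencing read counts per gene came from 9 libraries of mouse ES cells (embryonic stem cells) with E14 as their parental line, grown without feeder cells on gelatin in medium with serum and LIF, a cytokine that keeps ES cells undifferentiated. Each of 3 groups held 3 libraries, and all were collected at 72 h. The first group, labelled Zbtb11 KO, had Zbtb11 lox/lox alleles and Rosa26 ERt2-Cre, and received 250 nM of 4-hydroxytamoxifen (4OHT), the ligand that activates this Cre recombinase. The second, the 4OHT control, received 250 nM 4OHT but was Zbtb11 WT/WT and Rosa26 WT, so it carried no Cre. The third, the EtOH control, had the same alleles as the labelled KO group and received the carrier ethanol. The EtOH control therefore differs from the labelled KO group in the drug and what the drug sets off, while the 4OHT control differs from it in the line. Whether libraries of a group are separate cultures is not stated in the labels, so a p-value measures the spread among these libraries only, and that spread may be technical.

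Mitochondria fuse and divide continually. Mfn1 and Mfn2 are GTPases that join the outer membranes of neighbouring mitochondria, and Opa1 is the GTPase that then joins the inner membranes and also holds the necks of cristae, the folds of the inner membrane, tight. Oma1 is a stress-activated inner membrane protease that cuts Opa1 into its short form. Dnm1l (the protein Drp1) is the GTPase that constricts mitochondria from outside, and Mff, Fis1, Mief1 and Mief2 are outer membrane proteins that can bind it. Immt (the protein Mic60) is the core subunit of MICOS, the complex at cristae junctions. ES cells are known for small, sparsely folded mitochondria.

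Zbtb11 itself, the gene of a BTB zinc finger protein, was not lower at the level of whole-gene counts. It had 369.5, 386 and 376 CPM in labelled KO libraries, where CPM are edgeR's depth-scaled counts after TMM scaling between libraries. It had 364, 378 and 361 CPM in the 4OHT control, and 348, 359 and 359.8 CPM in the EtOH control. Its log2 fold change was 0.09 (SE 0.045, adjusted p = 0.17) in labelled KO over EtOH control, with an adjusted p of 0.032 once the replicate number entered the fit and of 0.013 with library totals (0.16). In labelled KO over 4OHT control it was 0.04 (SE 0.045, adjusted p = 0.55), or 0.12 (adjusted p = 0.036) with library totals. Which exons the lox sites flank is not stated in the labels, and counts over whole genes do not show a loss of single exons, so directions below are those of the libraries labelled Zbtb11 KO. Total gene counts ran between 16909139 and 23544893 reads a library, and each member had between 256 and 7067 reads in a library. The share of reads assigned to no gene was 32.7% to 33.8% in labelled KO libraries, 26.7% to 27.5% in the 4OHT control and 26.4% to 28.7% in the EtOH control. Labelled KO replicate 3 stood apart from the other labelled KO libraries, with chi-square values per degree of freedom of 15.6 and 16.7, against 4.98 to 7.55 for the other pairs within groups. Among the genes that carried this, picked after their values were seen, Gm23935 had 12700 CPM in this library against 4760 and 4520 CPM in the other labelled KO libraries. In the same order, mt-Rnr1 had 34200 against 23800 and 22500 CPM, and Lars2 had 1180 against 81.7 and 51.5 CPM. Member results without this library are given where it changes a call or a direction, and for Mfn2 and Mff. The 7 ES cell markers summed to 3530 to 3780 CPM in labelled KO libraries, against 3820 to 4340 CPM in 4OHT control libraries and 3720 to 3880 CPM in EtOH control libraries, none at 0. Esrrb fell against the EtOH control (-0.24) and the other 6 were not called, while Pou5f1 (-0.24), Zfp42 (-0.34), Esrrb (-0.26) and Dppa5a (-0.39) fell against the 4OHT control. The 6 primitive endoderm markers summed to 11 to 14.4 CPM in labelled KO libraries, against 6.78 to 7.83 CPM in 4OHT control libraries and 6.25 to 9.69 CPM in EtOH control libraries. Gata4, Gata6 and Sox17, 3 of the 5 tested, rose against each control, by 0.74 to 1.46 on the log2 scale. The sums were 18.6 to 18.8, 14 to 15 and 15.8 to 18.8 CPM for 7 fibroblast markers and 5.45 to 6.75, 5.82 to 7.59 and 4.60 to 6.28 CPM for 5 mesendoderm markers, in the same order of groups. Of the tested fibroblast and mesendoderm markers none was called against the EtOH control, and against the 4OHT control Col1a1 (1.01) and Col1a2 (2.14) rose and Thy1 fell (-0.65). Only Lum, in the EtOH control, was at 0 in all 3 libraries of a group. The part of these differences in the results below was not tested, and in bulk RNA fewer cells of a type and less RNA per cell cannot be told apart.

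Opa1, Dnm1l and Mfn1 fell in the labelled KO libraries relative to the EtOH control. Opa1 fell by 0.40 on the log2 scale, Dnm1l by 0.20 and Mfn1 by 0.18. The other 7 members did not pass the test, whose fit leaves out the replicate number, and all 7 had log2 fold changes above 0, between 0.01 and 0.23. Relative to the 4OHT control, Opa1 fell by 0.48 and Dnm1l by 0.20, and Fis1 rose by 0.24. Opa1 and Dnm1l thus fell against both controls, as did 9.60% of all genes; both comparisons use the same labelled KO libraries. Calls are at a Benjamini-Hochberg adjusted p under 0.05 in edgeR's quasi-likelihood test across all 16224 genes. That rule called 27.2% of all genes against the EtOH control, 13.0% upward and 14.2% downward, beside the 3 members that fell. It called 38.9% of all genes against the 4OHT control, 19.1% upward and 19.8% downward, beside 3 members. A count of 3 of 10 is near both backgrounds, so the number of members called says nothing particular about this machinery. The members' median log2 fold change was 0.07 against the EtOH control and 0.09 against the 4OHT control, beside medians of 0.01 and 0.02 over all genes tested.

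**Figure D1:**
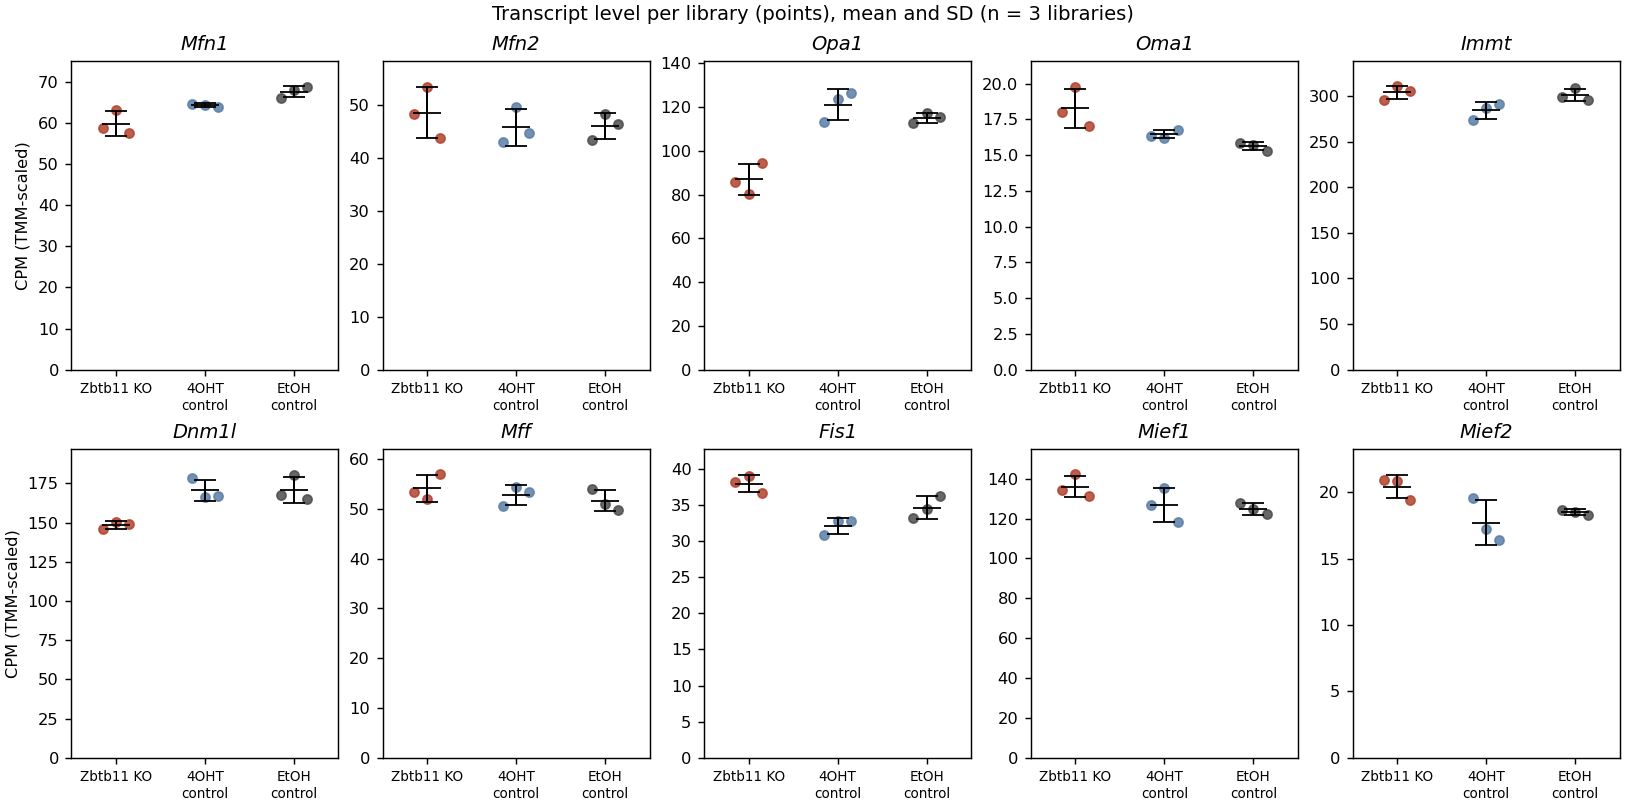
Level of each member in every library. Each panel is 1 gene, the vertical axis is CPM after TMM scaling and starts at 0, points are libraries in replicate order, and bars are the mean and SD of 3 libraries. The 3 labelled KO libraries of Opa1 sit between 80.5 and 94.5 CPM, below all 6 control libraries, which sit between 113 and 127 CPM.

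The number of members called moved with the test's settings. With the replicate number as a block, 6 members were called against the EtOH control (Oma1, Fis1 and Mief1 upward beside the 3 falls), where 42.8% of all genes were called. With the block, 6 members were also called against the 4OHT control (Fis1, Mief1, Mief2 and Immt upward, Opa1 and Dnm1l downward), where 51.4% of all genes were called. Scaling by library totals alone in place of TMM called 3 members upward and 1 downward against the EtOH control, beside 18.7% of all genes upward and 9.41% downward. The upward share of all calls was then 66.5%, against 47.8% with TMM. It called 5 upward and 1 downward against the 4OHT control, beside 26.0% of all genes upward and 14.3% downward, and the upward share was 64.4%, against 49.1% with TMM. Leaving out EtOH control replicate 2 left 1 member called against the EtOH control, Opa1. The call of Mfn1 against the EtOH control was lost in 6 alternatives and that of Dnm1l in 2. Opa1 was called downward against both controls in every one of the 16 alternatives run. Without labelled KO replicate 3, the library that stood apart, Opa1 (-0.47) and Dnm1l (-0.21) were called downward and Oma1 (0.27) upward against the EtOH control. Against the 4OHT control, Opa1 (-0.54) and Dnm1l (-0.21) were then called downward and Fis1 (0.26) upward.

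**Figure D2:**
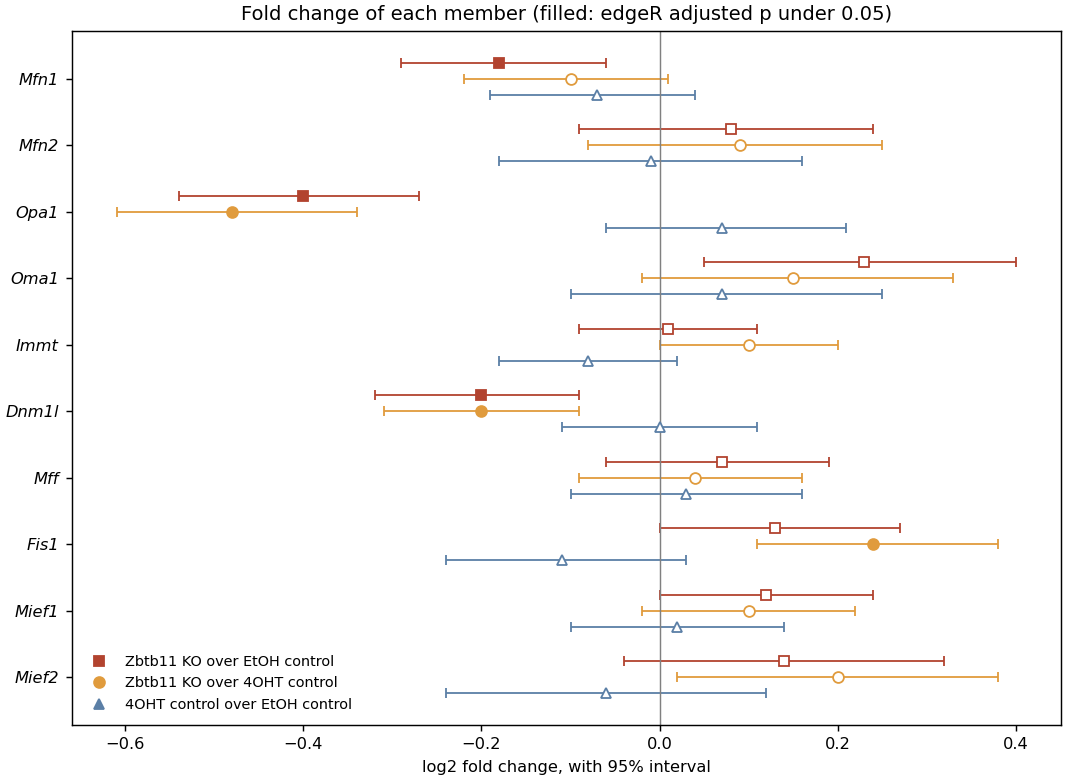
Log2 fold change of each member in 3 comparisons. The horizontal axis is the log2 fold change with its 95% interval, and filled symbols mark calls at an adjusted p under 0.05 in edgeR. Opa1 lies furthest from 0 in both labelled KO comparisons (-0.40 and -0.48), and the 4OHT control over EtOH control symbols are all open.

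Opa1, the inner membrane fusion GTPase, had 86.0, 80.5 and 94.5 CPM in labelled KO libraries, against 113, 124 and 127 CPM in 4OHT control libraries and 113, 117 and 115 CPM in EtOH control libraries. Every labelled KO library lay below every control library. Its level in labelled KO over EtOH control was 0.756-fold, a log2 fold change of -0.40 (SE 0.063, 95% interval -0.54 to -0.27, edgeR adjusted p = 0.00023). Of the 16224 genes tested, 1383 had a lower log2 fold change in that comparison. In labelled KO over 4OHT control the level was 0.718-fold, a log2 fold change of -0.48 (SE 0.063, 95% interval -0.61 to -0.34, adjusted p = 2.2e-05), and 1661 genes were lower. Over the 16 alternatives the log2 fold change of Opa1 stayed between -0.47 and -0.33 in labelled KO over EtOH control and between -0.54 and -0.40 in labelled KO over 4OHT control.

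Oma1, the protease that cuts Opa1, had 18.0, 19.7 and 17.1 CPM in labelled KO libraries, against 16.4, 16.2 and 16.8 CPM in 4OHT control libraries and 15.8, 15.7 and 15.3 CPM in EtOH control libraries. All labelled KO libraries lay above all control libraries, the lowest by a small margin. The test did not call it: its log2 fold change was 0.23 (SE 0.083, adjusted p = 0.053) in labelled KO over EtOH control and 0.15 (SE 0.083, adjusted p = 0.16) in labelled KO over 4OHT control. Against the EtOH control its adjusted p was 0.017 with the replicate block, 0.016 with library totals, 0.040 with a stricter filter on low counts and 0.037 without labelled KO replicate 3, and against the 4OHT control it was 0.037 with library totals.

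Of the outer membrane fusion pair, Mfn1 had 58.8, 63.2 and 57.6 CPM in labelled KO libraries, against 64.7, 64.4 and 63.8 CPM in 4OHT control libraries and 66.2, 68.0 and 68.7 CPM in EtOH control libraries. The labelled KO libraries lay below all controls, but labelled KO replicate 2 came within 1 CPM of the lowest control library. The log2 fold change of Mfn1 was -0.18 (SE 0.054, adjusted p = 0.025) in labelled KO over EtOH control and -0.10 (SE 0.054, adjusted p = 0.15) in labelled KO over 4OHT control. The call against the EtOH control was lost with library totals, where the log2 fold change was -0.10 (adjusted p = 0.17). It was also lost with the log2 fold change nearly as it was: -0.18 with no filter on low counts (adjusted p = 0.053), -0.17 without EtOH control replicate 2 (0.072) or 3 (0.075) or labelled KO replicate 1 (0.075), and -0.15 without labelled KO replicate 3 (0.077). Against the 4OHT control, Mfn1 was called without labelled KO replicate 2 (-0.15, adjusted p = 0.049).

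Mfn2, the other mitofusin, which also tethers mitochondria to the endoplasmic reticulum, had 48.4, 53.5 and 43.8 CPM in labelled KO libraries, against 43.0, 49.7 and 44.7 CPM in 4OHT control libraries and 43.5, 48.3 and 46.5 CPM in EtOH control libraries. The 3 groups overlapped. Replicate 2 was the highest library in each group. The log2 fold change of Mfn2 was 0.08 (95% interval -0.09 to 0.24, adjusted p = 0.50) in labelled KO over EtOH control and 0.09 (95% interval -0.08 to 0.25, adjusted p = 0.40) in labelled KO over 4OHT control. Without labelled KO replicate 3 these were 0.14 (adjusted p = 0.22) and 0.15 (adjusted p = 0.15).

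Dnm1l, the fission GTPase, had 146, 150.1 and 149 CPM in labelled KO libraries, against 178, 167 and 167 CPM in 4OHT control libraries and 167, 180.5 and 165 CPM in EtOH control libraries. The labelled KO libraries lay close together and below all 6 control libraries. The log2 fold change was -0.20 (SE 0.052, adjusted p = 0.0088) in labelled KO over EtOH control and -0.20 (SE 0.052, adjusted p = 0.0066) in labelled KO over 4OHT control. With library totals both calls were lost (-0.13, adjusted p = 0.058, and -0.12, adjusted p = 0.072), and the call against the EtOH control was also lost without EtOH control replicate 2 (-0.17, adjusted p = 0.055). The Dnm1l transcript matches the processed pseudogene Gm13719 over 1347 bases at 91.2% identity, so a part of its reads may have been split or discarded in the authors' counting.

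None of the adaptors that bind Dnm1l was called downward in either comparison. Downward calls covered 14.2% of all genes against the EtOH control and 19.8% against the 4OHT control. Among so few adaptors, their absence says nothing particular about this group. Fis1 had 38.1, 39.1 and 36.7 CPM in labelled KO libraries, against 30.9, 32.8 and 32.7 CPM in 4OHT control libraries and 33.2, 34.4 and 36.3 CPM in EtOH control libraries. Labelled KO replicate 3 was only just above the highest EtOH control library, while the distance to the 4OHT control was wider. Its log2 fold change was 0.24 (SE 0.064, adjusted p = 0.0073) in labelled KO over 4OHT control, a call kept in all 16 alternatives, and 0.13 (SE 0.064, adjusted p = 0.13) in labelled KO over EtOH control. The second value had an adjusted p of 0.049 under the replicate block and of 0.028 under library totals.

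Mief1 and Mief2 encode the related adaptors MiD51 and MiD49. Mief1 had 135, 142 and 132 CPM in labelled KO libraries, against 127, 135 and 118 CPM in 4OHT control libraries and 128, 125 and 122 CPM in EtOH control libraries. Its labelled KO libraries lay above the EtOH control and overlapped the 4OHT control. The log2 fold change of Mief1 was 0.12 (SE 0.057, adjusted p = 0.12) in labelled KO over EtOH control and 0.10 (SE 0.057, adjusted p = 0.17) in labelled KO over 4OHT control. With the replicate block these adjusted p-values were 0.013 and 0.030, and with library totals 0.021 and 0.018. Mief1 shares 213 exon bases with the annotated coding gene AC140267.1 on the same strand. AC140267.1 had no row in the files, so any reads from it there may have been counted under Mief1.

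Mief2 had 20.96, 20.87 and 19.45 CPM in labelled KO libraries, against 19.6, 17.2 and 16.4 CPM in 4OHT control libraries and 18.7, 18.5 and 18.3 CPM in EtOH control libraries. Only 4OHT control replicate 1 reached into the labelled KO range. The log2 fold change of Mief2 was 0.14 (SE 0.084, adjusted p = 0.23) in labelled KO over EtOH control and 0.20 (SE 0.085, adjusted p = 0.067) in labelled KO over 4OHT control. The second had an adjusted p of 0.021 with the replicate block, 0.017 with library totals and 0.023 without 4OHT control replicate 1.

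Mff, a main adaptor of Dnm1l in many cell types, had 53.4, 51.9 and 57.0 CPM in labelled KO libraries, against 50.5, 54.4 and 53.5 CPM in 4OHT control libraries and 54.1, 51.1 and 49.8 CPM in EtOH control libraries. The groups overlapped, with log2 fold changes of 0.07 (95% interval -0.06 to 0.19, adjusted p = 0.45) over the EtOH control and 0.04 (95% interval -0.09 to 0.16, adjusted p = 0.67) over the 4OHT control. Without labelled KO replicate 3 these were 0.02 (adjusted p = 0.85) and -0.01 (adjusted p = 0.96).

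Immt, the MICOS core, had 296, 311 and 306 CPM in labelled KO libraries, against 274, 288 and 292 CPM in 4OHT control libraries and 299.5, 309 and 296 CPM in EtOH control libraries. The labelled KO and EtOH control libraries covered nearly the same range, and the 4OHT control lay below the labelled KO libraries. The log2 fold change of Immt was 0.01 (95% interval -0.09 to 0.11, adjusted p = 0.87) in labelled KO over EtOH control. It was 0.10 (SE 0.047, adjusted p = 0.12) in labelled KO over 4OHT control, with an adjusted p of 0.018 under the replicate block and of 0.0042 under library totals. Immt matches the pseudogene Gm19617 over 315 bases at 94.9% identity.

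Set against all 6 control libraries together, the labelled KO libraries were lower for Opa1, Dnm1l and Mfn1 and higher for Oma1 and Fis1. The other 5 members overlapped. Over all genes tested, 26.7% had labelled KO libraries outside all 6 control libraries, 13.1% below and 13.5% above.

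The upstream windows of the 3 genes that fell and of Fis1 are shown because these are the members the calls turn on. Each is the 250 bases before the start of the gene, 5′ to 3′ on the gene's strand, from RefSeq on GRCm38.p6, in which all 10 members had a window. Where a gene had several windows, the one nearest the start of its longest coding transcript was taken. Capitals mark matches on either strand to CCGGAAG, a core motif bound by Gabpa and other ETS factors, and to GCGCATGC, a partial palindrome bound by Nrf1. Both factors are known regulators of mitochondrial genes, and the motifs were picked after the values had been seen.
Opa1, chr16:29579084-29579333, plus strand: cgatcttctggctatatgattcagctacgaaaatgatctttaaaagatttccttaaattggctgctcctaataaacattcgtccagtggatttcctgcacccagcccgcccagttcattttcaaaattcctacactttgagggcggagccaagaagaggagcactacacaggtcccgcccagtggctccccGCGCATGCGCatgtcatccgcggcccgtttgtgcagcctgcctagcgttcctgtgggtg
Mfn1, chr3:32529232-32529481, plus strand: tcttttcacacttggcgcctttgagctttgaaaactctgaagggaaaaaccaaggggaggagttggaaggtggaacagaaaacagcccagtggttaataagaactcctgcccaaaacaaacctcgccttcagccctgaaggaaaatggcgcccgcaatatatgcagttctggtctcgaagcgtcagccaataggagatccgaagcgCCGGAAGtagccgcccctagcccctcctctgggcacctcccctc
Dnm1l, chr16:16359032-16359281, minus strand: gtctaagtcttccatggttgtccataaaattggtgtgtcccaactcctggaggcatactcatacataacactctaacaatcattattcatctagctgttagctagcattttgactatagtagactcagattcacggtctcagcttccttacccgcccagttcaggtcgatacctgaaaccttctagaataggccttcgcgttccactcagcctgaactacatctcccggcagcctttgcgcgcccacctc
Fis1, chr5:136953025-136953274, plus strand: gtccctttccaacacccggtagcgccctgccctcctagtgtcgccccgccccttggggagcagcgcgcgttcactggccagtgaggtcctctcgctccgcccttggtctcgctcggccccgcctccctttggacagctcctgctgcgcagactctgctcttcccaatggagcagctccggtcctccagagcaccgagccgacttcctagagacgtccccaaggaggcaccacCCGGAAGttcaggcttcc
The Opa1 window holds a single palindromic stretch that matches the Nrf1 letters once on each strand. These 2 matches overlap, 59 and 57 bases before the start, and the window holds none to CCGGAAG. The Mfn1 window holds CCGGAAG 44 bases before the start and the Fis1 window holds it 18 bases before the start. The Dnm1l window holds neither set of letters. Among the 10 members, 4 windows hold CCGGAAG (Mfn1, Fis1, Mief1 and Immt), and 1 holds the Nrf1 letters. Among 32851 windows of the same length in the table, 6.9% hold CCGGAAG and 2.3% hold GCGCATGC. These windows were not limited to genes that passed the filter, and some genes have several, while each member has 1. The shares are thus no matched background, and the difference was not tested. Members with CCGGAAG thus include Mfn1, which fell against the EtOH control only, and Fis1, which rose against the 4OHT control only. They also include genes not called in either comparison, and a match describes letters, not binding.

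Ratios of 2 members within a library do not depend on the scaling between libraries. They were taken as the log2 ratio of CPM, each with 0.5 CPM added, and compared with an exact two-sided permutation test, whose smallest possible p with 3 against 3 is 0.1. The ratio of Opa1 to its protease Oma1 was 2.22 ± 0.22 in labelled KO libraries, 2.84 ± 0.076 in the 4OHT control and 2.84 ± 0.043 in the EtOH control (log2, SD, n = 3). The difference was -0.62 against each control, with no overlap (exact permutation p = 0.1 in both). The labelled KO libraries spread widely, at 2.22, 2.00 and 2.44, yet the highest of them was below the lowest control value of 2.75.

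The ratio of Opa1 to Dnm1l, inner membrane fusion over fission, was -0.76, -0.90 and -0.66 in labelled KO libraries. It was -0.65, -0.43 and -0.40 in the 4OHT control and -0.57, -0.62 and -0.51 in the EtOH control. The difference was -0.28 against the 4OHT control and -0.20 against the EtOH control, without overlap (exact permutation p = 0.1 in both). Against the 4OHT control the margin was narrow, between -0.66 in labelled KO replicate 3 and -0.65 in 4OHT control replicate 1. The ratio of Mfn1 to Opa1 was 0.37 higher in labelled KO libraries than in the 4OHT control and 0.23 higher than in the EtOH control, also without overlap (exact permutation p = 0.1 in both). The ratios with Oma1, Dnm1l and Mfn1 all contain Opa1, whose labelled KO libraries lay below all control libraries. Their separations are therefore not independent results.

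The ratio of Mfn1 to Mfn2 was 0.30 ± 0.077 in labelled KO libraries, 0.49 ± 0.11 in the 4OHT control and 0.55 ± 0.057 in the EtOH control (log2, SD, n = 3). The difference was -0.25 against the EtOH control without overlap (exact permutation p = 0.1), and -0.19 against the 4OHT control with overlap (exact permutation p = 0.2). Among the Dnm1l adaptors, Mff to Fis1 differed by -0.20 from the 4OHT control without overlap (exact permutation p = 0.1) and by -0.07 from the EtOH control with overlap (exact permutation p = 0.6). Mief1 to Mief2 differed by -0.10 from the 4OHT control (exact permutation p = 0.3) and by -0.02 from the EtOH control (exact permutation p = 0.8). Adjusted over the 12 ratio comparisons, the exact permutation p-values of 0.1 became 0.15, so none passed 0.05, which this design cannot reach.

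**Figure D3:**
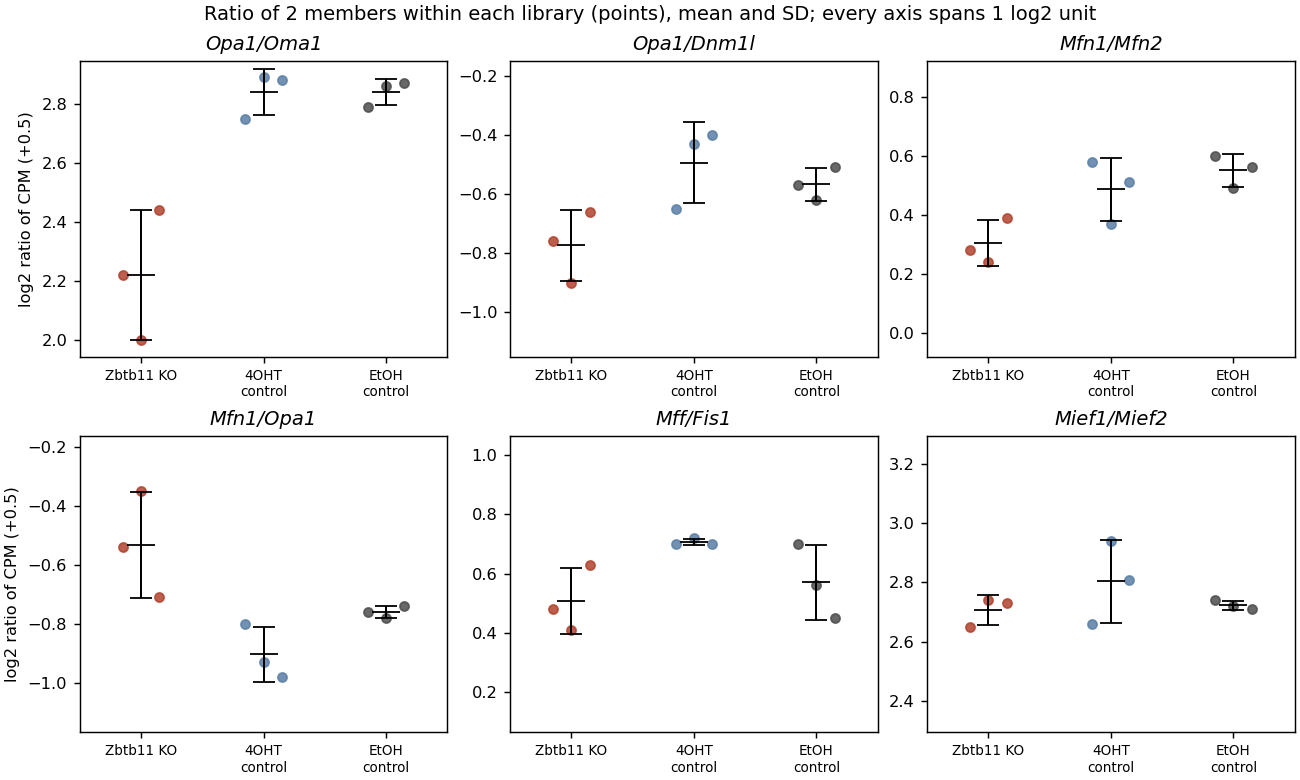
Log2 ratio of 2 members within each library. Points are libraries, bars are the mean and SD of 3 libraries, and each vertical axis covers the same span of log2 units but does not start at 0. Opa1 to Oma1 shows the widest separation, 2.00 to 2.44 in labelled KO libraries and 2.75 to 2.89 in the controls.

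None of the 10 members was called in the 4OHT control over the EtOH control, in which 18.4% of all genes were called. Log2 fold changes ran between -0.11 (Fis1) and 0.07 (Opa1, Oma1). With DESeq2 the count was 0 as well, and 0 members had an unadjusted p under 0.05 in edgeR. With the replicate block the count was also 0, where 32.8% of all genes were called. The 95% interval for Opa1 was -0.06 to 0.21 and that for Dnm1l was -0.11 to 0.11. These groups differ in line and drug together, which cannot be told apart.

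The wider machinery was described by 5 lists of 59 related genes, of which 58 were tested. In labelled KO over EtOH control 7 of them rose and 4 fell, with a median log2 fold change of -0.05, beside 13.0% of all genes upward and 14.2% downward. In labelled KO over 4OHT control 12 rose and 8 fell, with a median of 0.02, beside 19.1% of all genes upward and 19.8% downward. Against the EtOH control, none of the 12 MICOS and bridge partners was called by edgeR, where 2 had an unadjusted p under 0.05, and their median was 0.00. Against the 4OHT control 3 of these rose and 1 fell. They are named here after their values were seen: Mtx3 (0.45), 2410015M20Rik (the MICOS subunit Mic13, 0.37), Minos1 (Mic10, 0.19) and Armc1 (-0.16). Of these, 2410015M20Rik was also lower in the 4OHT control than in the EtOH control (-0.41, edgeR adjusted p = 0.0006).

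Among 19 tested outer membrane regulators of fusion and fission, 4 rose and 1 fell against the EtOH control, with a median of -0.04, and 4 rose and 3 fell against the 4OHT control. These counts stand beside all-gene shares called of 27.2% and 38.9%. March5, a ubiquitin ligase of the outer membrane that acts on mitofusins and Dnm1l, had 97.7, 97.9 and 94.7 CPM in labelled KO libraries, against 67.8, 64.3 and 66.4 CPM in 4OHT control libraries and 67.9, 71.7 and 74.7 CPM in EtOH control libraries. The labelled KO libraries lay far above all control libraries, while the control groups lay close to each other. Its log2 fold change was 0.44 (SE 0.053, adjusted p = 1.8e-05) over the EtOH control and 0.55 (SE 0.053, adjusted p = 8.3e-07) over the 4OHT control, and it was called in every alternative. Mul1, another outer membrane ubiquitin ligase, rose by 0.36 over the EtOH control and 0.30 over the 4OHT control. The first call ended without labelled KO replicate 1 (0.30) and the second without labelled KO replicate 1 (0.24, adjusted p = 0.082) or 4OHT control replicate 1 (0.22, adjusted p = 0.077).

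Mtfr1, a regulator of mitochondrial fission, fell by 0.23 over the EtOH control and by 0.20 over the 4OHT control, the second not with library totals (-0.11, adjusted p = 0.10). Inf2, a formin that assembles actin where the endoplasmic reticulum meets mitochondria, rose by 0.28 over the EtOH control and 0.93 over the 4OHT control. Inf2 was itself lower in the 4OHT control than in the EtOH control (-0.66, adjusted p = 2.3e-05). The first rise was lost without EtOH control replicate 2 (0.26, adjusted p = 0.055) or labelled KO replicate 3 (0.22, adjusted p = 0.051). The fourth rise over the EtOH control was Senp5 (0.23, adjusted p = 0.021), a SUMO protease that acts on Dnm1l, named after its value was seen. It was not called over the 4OHT control (0.12, adjusted p = 0.18).

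Among the 12 inner membrane proteases and scaffolds, 2 rose and 2 fell over the EtOH control, with a median of -0.08, and 3 rose and 1 fell over the 4OHT control, with a median of 0.03. Of all genes, 27.2% were called over the EtOH control and 38.9% over the 4OHT control. Stoml2, a cardiolipin-binding scaffold, fell by 0.23 and was not called over the 4OHT control (-0.13, adjusted p = 0.081; 0.0075 with the replicate block, and 0.030 without labelled KO replicate 2). Phb, a subunit of the prohibitin ring, fell by 0.28 over the EtOH control and stood at 0.03 over the 4OHT control (adjusted p = 0.76), and the 4OHT control was itself lower than the EtOH control (-0.31, adjusted p = 0.0068). Without EtOH control replicate 2 the fall of Phb was not called (-0.24, adjusted p = 0.051). Over the 4OHT control, Phb2 rose (0.57) and Spg7 fell (-0.63), both named after their values were seen. Neither was called over the EtOH control (-0.13 and -0.19). In the 4OHT control over the EtOH control, Phb2 was lower (-0.69) and Spg7 higher (0.44). Ghitm, an inner membrane protein needed for normal cristae, rose by 0.20 over each control. Both calls were lost without labelled KO replicate 2, at 0.13 (adjusted p = 0.083) over the EtOH control and 0.14 over the 4OHT control. Parl, a rhomboid protease, rose by 0.20 over the EtOH control and 0.42 over the 4OHT control, and it was lower in the 4OHT control than in the EtOH control (-0.23, adjusted p = 0.017). The first call of Parl was lost with DESeq2 (0.17, adjusted p = 0.075) and without EtOH control replicate 1 (0.15) or 2 (0.20), or labelled KO replicate 2 (0.13) or 3 (0.20).

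The remaining lists cover transport and lipids. Their counts stand beside 27.2% of all genes called over the EtOH control and 38.9% over the 4OHT control. Of 6 genes for transport on microtubules, 1 rose over the EtOH control: Trak2, a kinesin adaptor, at 0.22 (adjusted p = 0.030). It stood at 0.00 over the 4OHT control and was itself higher in the 4OHT control than in the EtOH control (0.22, adjusted p = 0.044). Over the 4OHT control none of the 6 rose and 2 fell, Trak1 (-0.99) and Kif5b (-0.22), named after their values were seen. Both were also higher in the 4OHT control than in the EtOH control, by 0.91 and 0.19. The call of Trak2 over the EtOH control was lost with DESeq2 (0.20) and without EtOH control replicate 2 (0.24) or 3 (0.17) or labelled KO replicate 1 (0.20) or 2 (0.15). Of 9 genes of cardiolipin synthesis and remodelling, 1 fell over the EtOH control, with a list median of -0.12, and 2 rose and 1 fell over the 4OHT control, with a median of 0.03. The 2 rises were Tamm41 (0.44) and Pgs1 (0.14), named after their values were seen. Neither was called over the EtOH control (-0.12 and -0.14). Both were lower in the 4OHT control than in the EtOH control (-0.57 and -0.28). The gene that fell over each control was Ptpmt1, the phosphatase that makes phosphatidylglycerol, the precursor of cardiolipin. It had 9.34, 7.69 and 7.49 CPM in labelled KO libraries, against 13.2, 15.04 and 15.2 CPM in 4OHT control libraries and 11.3, 9.97 and 11 CPM in EtOH control libraries. Its log2 fold change was -0.39 (SE 0.11, adjusted p = 0.019) over the EtOH control and -0.82 (SE 0.11, adjusted p = 3.2e-05) over the 4OHT control, and the 4OHT control was higher than the EtOH control (0.43, adjusted p = 0.012). The call over the EtOH control was lost with library totals (-0.32, adjusted p = 0.058) and without EtOH control replicate 1 (-0.36) or 3 (-0.38) or labelled KO replicate 3 (-0.34).

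**Figure D4:**
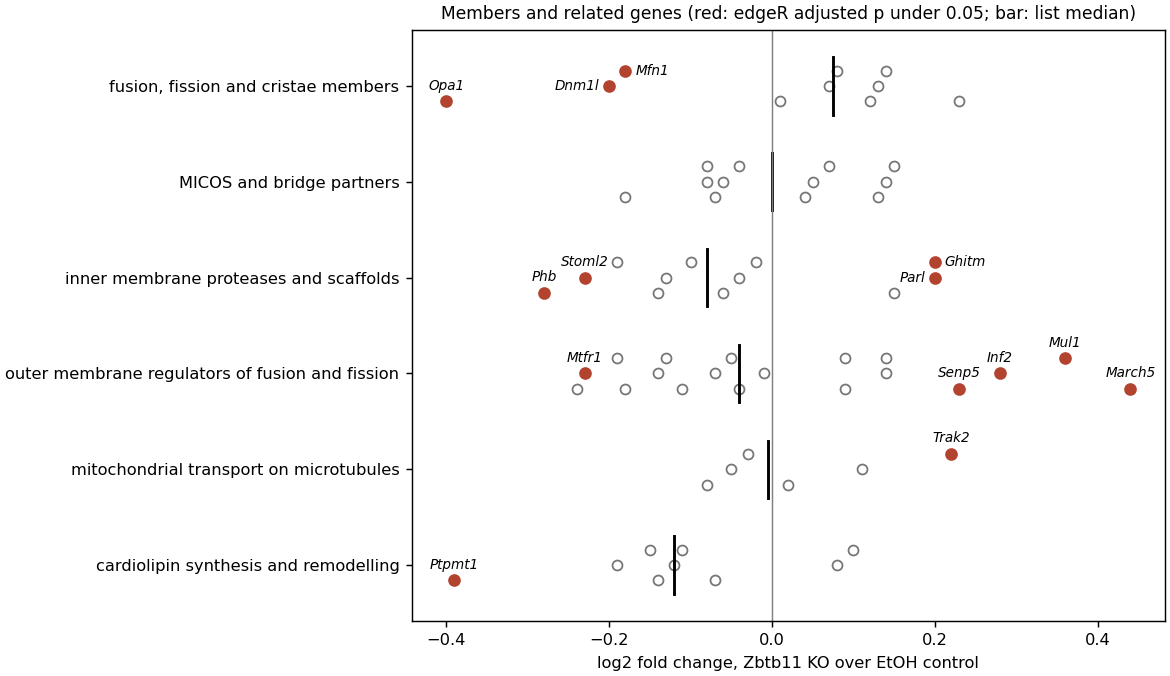
Log2 fold change of the members and of the 5 related lists in labelled KO over EtOH control. Each point is a gene, red points passed an adjusted p of 0.05 in edgeR and are named, and the black bar is the median of the list. Opa1 (-0.40) and Ptpmt1 (-0.39) lie lowest and March5 (0.44) highest.

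Levels between members were compared as CPM per kilobase of the longest coding transcript. In the EtOH control Immt was highest at 110 ± 2.5, followed by Dnm1l at 43.1 ± 2.1 and Fis1 at 36.5 ± 1.6 (SD, n = 3). Mff at 24.8 ± 1.0 and Mief1 at 24.3 ± 0.58 came next and overlapped. Opa1 followed at 18.5 ± 0.36, Mfn1 at 14.8 ± 0.28 and Mfn2 at 10.6 ± 0.57, and Oma1 at 8.15 ± 0.15 and Mief2 at 7.34 ± 0.083 were lowest. In labelled KO libraries Fis1, at 40.0 ± 1.2, stood above Dnm1l, at 37.4 ± 0.59, and Opa1, at 14.0 ± 1.1, overlapped Mfn1, at 13.1 ± 0.65. The order depends on the length used, an alternative added after the data were seen. Over the union of all annotated exons Mff moved to the lowest rank, 10, at 5.29 in the EtOH control, and Dnm1l, at 32.8, stood above Immt, at 26.5. Over that length Fis1, at 22.1, stood below Dnm1l, at 28.5, in labelled KO libraries.

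The pattern of Opa1, the member with the smallest p, was set beside 10876 other genes with a symbol and a mean log2 CPM of at least 2. By Pearson's r of log2 CPM over the 9 libraries, the most alike were Cnot6l (0.989), Lmtk2 (0.987), Zfp318 (0.986), Scaf4 (0.982) and Tma16 (0.979). The libraries share their groups, so r mainly describes the steps between groups. Tma16 differed most in size, at 21.1, 18.8 and 22.3 CPM in labelled KO libraries, against 48.6, 55.3 and 54.5 CPM in 4OHT control libraries and 41.1, 43.6 and 44.2 CPM in EtOH control libraries. Scaf4 was closest to Opa1 in size, with log2 fold changes of -0.36 (adjusted p = 0.00029) over the EtOH control and -0.41 (adjusted p = 4.1e-05) over the 4OHT control.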

How the data were processed

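Directional libraries were made from 1 μg of total RNA after depletion of ribosomal RNA, per the labels' protocols. Per library, the authors deposited 1 file of raw counts of reads for each gene. Cutadapt, STAR, HTSeq, edgeR, Bowtie 1.1.2, MACS2 and DiffBind and the build mm9 are listed, per the submitters' processing notes, without roles. Neither the strand setting nor the annotation release is given in the sources used here: sense and antisense reads may not have been told apart. Dnm1l, Mff and Immt share 243, 195 and 185 exon bases with genes on the other strand, none of which had a row in the files. The 5 closing rows without a gene were left out of totals and tests; 26.4% to 33.8% of reads had no feature and 0.780% to 0.908% were ambiguous.

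Names and transcript lengths came from GENCODE M21 (32620 of 37310 rows matched a symbol), and copies of transcripts were searched with BLAST 2.17.0. Upstream sequence came from RefSeq. Counts were tested with edgeR 4.0.16 (limma 3.58.1, R 4.3.3): filterByExpr, TMM, 1 quasi-likelihood fit of 9 libraries with a mean per group, Benjamini-Hochberg over 16224 genes, called under 0.05. Gene totals of 16909139 to 23544893 reads and 3 libraries per group set the precision. Ratios used scipy 1.17.1. The fit was tested on simulated counts, in which changes of genes with low counts were recovered less often; the limit it had to reach was restricted to better-counted genes after that was seen.

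The groups share replicate numbers. Deviations from the group means of all 9 pairs with the same number correlated at 0.11 to 0.31, and those of pairs with different numbers at -0.23 to -0.02. The main fit does not use the numbers, and a fit with the number as a block was run as an alternative. The labels do not say what the number stands for. Alternatives were other scalings and filters, DESeq2 1.42.0, the replicate block, fits of only the groups compared and leaving out each library.

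The members and lists were chosen with earlier results of these data known. Named genes are the members, Zbtb11, up to 4 called genes with the smallest p of each related list against the EtOH control, and the 5 genes most like the member with the smallest p.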

Additional observations from a re-analysis of the deposited data

Results flagged for a closer look

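Reads that the counting assigned to no gene feature, which enter none of the comparisons, averaged 33.3% of reads in the labelled KO libraries, above the 27.1% of the 4OHT control and 27.7% of the EtOH control. This was singled out because it is a signal outside the gene counts that is higher than in both controls, in every labelled KO library. Where these reads lay was not examined, and their part in the member results was not tested.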

How the results depend on the processing

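With the replicate block, 6936 genes were called in labelled KO over EtOH control (4417 without it) and 5323 in 4OHT control over EtOH control (2987 without it), and 6 members in each labelled KO comparison (3 without it). Library totals called 6 members in labelled KO over 4OHT control. Leaving out 1 library at a time gave 1 to 3 members called over the EtOH control, the lowest without EtOH control replicate 2, and 3 to 4 over the 4OHT control. It gave 3067 to 4559 genes called over the EtOH control, and 1974 to 3069 in 4OHT control over EtOH control, the lowest again without EtOH control replicate 2. Apart from the members, Zbtb11 and Stoml2 as given above, and Stoml2 in 4OHT control over EtOH control (adjusted p = 0.044 with it and 0.23 without it), the block changed no call of a gene named by the rule. For the ratio comparisons with an exact permutation p of 0.1, the exact permutation p of the paired test was 0.25, the smallest that 3 pairs allow.

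Reversals were confined to values near 0 that did not pass the test. In labelled KO over EtOH control, Immt was -0.01 with DESeq2. Leaving out 1 library at a time gave -0.02 to 0.03 for Immt, -0.01 to 0.14 for Mfn2 and -0.03 to 0.01 for the ratio of Mief1 to Mief2. In labelled KO over 4OHT control Trak2 was -0.01 with DESeq2's size factors in edgeR and -0.02 with DESeq2, and leaving out 1 library gave -0.06 to 0.07 for Trak2, -0.06 to 0.09 for Phb and -0.01 to 0.06 for Mff. In 4OHT control over EtOH control it gave -0.07 to 0.03 for Mfn2, -0.04 to 0.04 for Dnm1l and -0.03 to 0.06 for Mief1. The causes were not tested. Over all 30 member fold changes and 16 alternatives, 444 values kept direction and side of the threshold, 17 became calls, 9 lost a call and 10 reversed. Member counts were 256 reads or more in every library, with standard errors of 0.047 to 0.085 on the log2 scale, and with 3 libraries per group the exact test of a ratio cannot reach 0.05.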
